A study of Mus musculus with 14 samples.

Results

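The 9 genes described here are widely read as targets of the transcriptional co-activator YAP or as markers of a fetal-like, regenerating gut epithelium, and were followed through 14 RNA-seq libraries of mouse intestinal stem cells. They were chosen by name, with earlier results of these data known: Cyr61 (also called Ccn1), Ctgf (Ccn2), Thbs1, Amotl1, Amotl2, Ankrd1, Clu, Anxa1 and Ly6a. All 9 were found, with 1 row each, among the 55335 genes of each of the 2 deposited count tables. The cells were isolated by fluorescence-activated sorting for the EGFP that a knock-in places under control of the stem cell gene Lgr5.

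In the first experiment, here called the Chrm3 experiment, all 8 libraries came from mice with the Lgr5CreERT2-IRES-GFP allele and floxed Chrm3, the gene of the muscarinic acetylcholine receptor M3. Mice injected with vehicle for 3 days kept the receptor (WT), and mice injected with tamoxifen, which activates the Cre recombinase in Lgr5 cells, are labelled as its deletion in those cells (KO). Genotype and injection therefore changed together. Each was studied in a group labelled NT, here the controls of ES, and after a procedure that the labels abbreviate as ES and place in a study of chronic stress, giving 4 groups of n = 2 libraries that are named WT NT and WT ES, or KO NT and KO ES. The second experiment compared cells of young mice (2 months) and old mice (18 months), n = 3 libraries each, which carried the Lgr5CreERT2-IRES-GFP allele without the floxed gene. The age of the Chrm3 mice, and whether each library is a separate animal, are not stated in the sources used here, so p-values reflect how far these libraries spread, which may be technical.

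YAP and its relative TAZ enter the nucleus when the kinase cascade of the Hippo pathway is inactive and, bound to TEAD proteins, switch on genes for secreted matrix proteins, for cytoskeletal adaptors and for feedback inhibitors of YAP itself. In the gut they are known for their part in repair: after injury, crypts pass through a state that resembles the fetal epithelium, in which the surface protein Ly6a (Sca-1), the annexin Anxa1 and the secreted chaperone clusterin (Clu) are switched on. Cyr61, Ctgf and Thbs1 are secreted matrix-associated proteins, Amotl1 and Amotl2 are angiomotin-like junction proteins that can hold YAP outside the nucleus, and Ankrd1 is a nuclear ankyrin-repeat protein of muscle and of injured tissue. Several of these genes also answer quickly to growth factors and to stress, as immediate early genes do.

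Library totals ran from 26683563 to 36882310 counts in the Chrm3 experiment and from 32366366 to 35804988 in the ageing experiment, and mitochondrial transcripts took 6.12% to 8.74% of them. The highest mitochondrial share was that of KO NT replicate 2, and the next was 7.53%. The stem cell identity of the sort was visible in all groups: Olfm4 stood between 7975 and 12846 CPM (counts scaled to the library total, with TMM factors) and Lgr5 between 80.3 and 133 CPM. Ascl2, a further stem cell gene, ranged from 18.4 to 37.2 CPM. By edgeR it was called lower after ES in WT (log2 difference -0.74 ± 0.11 SE) and in old cells (-0.63 ± 0.11). It was called higher in KO over WT with ES (0.47 ± 0.11). The 7 Paneth cell markers summed to 5486 to 8967 CPM in the Chrm3 libraries and 6384 to 8247 in the ageing libraries. Chrm3 itself averaged 12.1 ± 1.28 CPM (SD, n = 2) for WT NT, 11.2 ± 0.51 for WT ES, 8.47 ± 1.08 for KO NT and 7.08 ± 1.47 for KO ES, lower with the deletion but far from 0. Which part of the gene was deleted is not stated in the sources used here, and this count checks the labels only weakly.

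The upstream sequences were searched for the letters that TEAD proteins are known to bind, and 5 of the 9 members could be matched in the RefSeq promoter table (build GRCm38.p6). The motif searched was CATTCC, the TEAD core, on both strands in the 250 bases before the RefSeq start. Cyr61 (chr3:145649986-145650235, minus strand) is shown as a secreted target that changed in 3 of the comparisons below, and Amotl2 (chr9:102717554-102717803, plus strand) and Amotl1 (chr9:14615001-14615250, minus strand) as 2 related genes that behaved differently. Each is written 5′ to 3′ along the gene's own strand, with the motif in capitals.
Cyr61: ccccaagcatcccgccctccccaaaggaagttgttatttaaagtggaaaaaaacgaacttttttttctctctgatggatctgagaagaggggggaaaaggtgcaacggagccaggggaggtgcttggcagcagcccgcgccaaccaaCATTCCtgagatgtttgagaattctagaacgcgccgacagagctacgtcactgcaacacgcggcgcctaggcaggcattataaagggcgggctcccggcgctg
Amotl2: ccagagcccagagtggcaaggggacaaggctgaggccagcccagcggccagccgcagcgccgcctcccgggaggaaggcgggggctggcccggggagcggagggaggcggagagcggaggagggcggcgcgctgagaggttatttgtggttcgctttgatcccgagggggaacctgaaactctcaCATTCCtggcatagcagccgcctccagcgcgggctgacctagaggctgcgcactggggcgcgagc
Amotl1: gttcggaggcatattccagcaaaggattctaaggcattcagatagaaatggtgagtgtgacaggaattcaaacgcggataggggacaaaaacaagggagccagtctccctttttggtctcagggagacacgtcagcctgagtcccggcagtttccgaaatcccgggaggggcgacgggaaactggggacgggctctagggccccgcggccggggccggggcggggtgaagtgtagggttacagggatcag
Cyr61 held CATTCC once, from position -103 to -98 relative to the start, and Amotl2 once, from -65 to -60. No match stood in the Amotl1 window. The Amotl1 and Amotl2 windows each lie before a RefSeq start inside the longer GENCODE gene, so each covers only 1 of the possible starts. Ankrd1 held the motif on the other strand at 2 places and Anxa1 held it once. Of 32851 mouse promoters in the table, 12.6% held the motif at least once in the same window. None of the 5 windows held the AP-1 motif TGANTCA (6.75% of all promoters), the cyclic AMP response element TGACGTCA (1.55%) or the CArG box of serum response factor (1.47%). These matches describe letters and say nothing of binding.

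Per kilobase of exon, the scale on which genes can be compared, the 9 members covered a wide range of levels. Cyr61 was highest, at 16.2 to 61.6 CPM per kilobase in the Chrm3 libraries and 27.5 to 66.5 in the ageing libraries. Thbs1 followed, at 3.03 to 13.1 and 5.51 to 22.0 CPM per kilobase. Its ranges did not overlap those of Cyr61. Ly6a, at 2.45 to 4.64 CPM per kilobase, was above Amotl2, at 1.22 to 2.04, in the ageing libraries, whereas in the Chrm3 libraries the ranges of Amotl2 (0.73 to 1.36) and Ly6a (0.45 to 2.10) overlapped. Clu ran from 0.25 to 0.87 CPM per kilobase over both experiments and Amotl1 from 0.06 to 0.79, overlapping each other. In the ageing libraries both were below Amotl2, and in the Chrm3 libraries Clu (0.31 to 0.76) overlapped Ly6a and Amotl2. Ctgf, Anxa1 and Ankrd1 were at or near 0. The 2 experiments were normalised separately, so levels in one were not tested against the other.

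**Figure D1:**
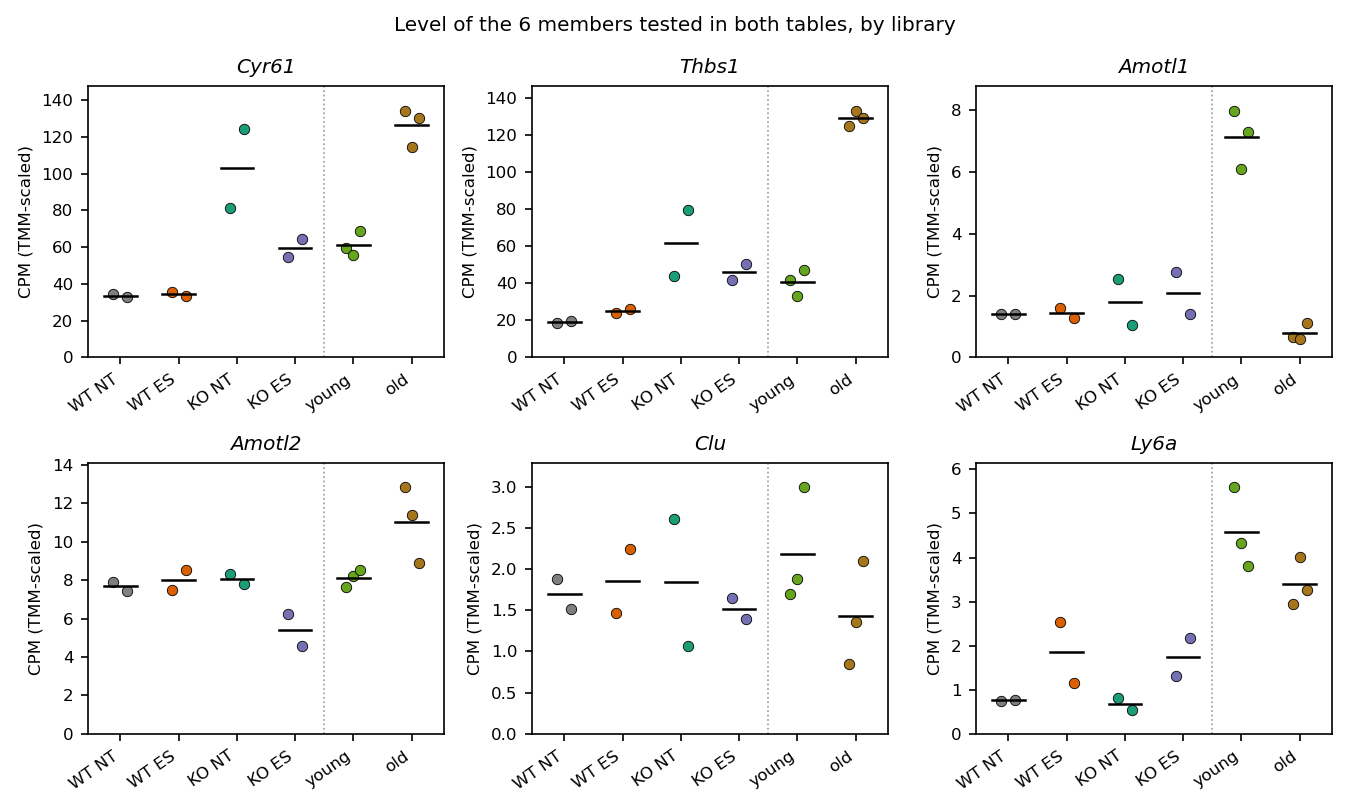
Levels of the 6 members tested in both experiments, in CPM on the vertical axis of each panel, with 1 point per library, a line at the group mean and a dotted line between the experiments. Cyr61 and Thbs1 are high in both KO NT libraries and in all 3 old libraries, Amotl1 is high in the 3 young libraries, and the points of Clu overlap between groups.

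Cyr61, a secreted matricellular protein that signals through integrins, was the member with the highest level and changed with the Chrm3 genotype and with age (chr3, 145646976 to 145649981, minus strand, GRCm38). The WT libraries held 34.5 and 32.7 CPM without ES and 35.8 and 33.5 CPM with it. The KO libraries held 81.4 and 124 CPM without ES and 54.6 and 64.7 CPM with it. Every KO library was above every WT library, and the KO ES libraries lay between WT and KO NT. Without ES, Cyr61 rose 3.06-fold in KO over WT (log2 difference 1.61 ± 0.17 SE, adjusted p = 0.000558, edgeR quasi-likelihood test, adjusted over all tested genes). With ES, KO remained 1.72-fold above WT (0.78 ± 0.17, adjusted p = 0.0204), a call that was lost without WT ES replicate 1 (adjusted p = 0.0849), WT ES replicate 2 (0.124) or KO ES replicate 2 (0.149).

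ES itself left Cyr61 near its starting level in WT cells (0.04 ± 0.17, adjusted p = 0.932). In KO cells Cyr61 was 1.72-fold lower after ES, without overlap between the groups, and missed the threshold (-0.78 ± 0.16, adjusted p = 0.0748). Without KO NT replicate 1 this difference was -1.06 (adjusted p = 0.000444) and without KO NT replicate 2 it was -0.45 (adjusted p = 0.0946), so its size depended on which KO NT library was used. The difference between the ES effects in KO and in WT was -0.83 ± 0.23 (adjusted p = 0.212), and it passed the threshold without KO NT replicate 1 (-1.10, adjusted p = 0.00167). With age the gene rose 2.06-fold, from 59.8, 55.6 and 69.0 CPM in the young libraries to 134, 114 and 130 in the old ones. The groups did not overlap (log2 difference 1.04 ± 0.09, adjusted p = 8.68e-05), and the call held under all 13 alternatives run.

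Thbs1 (chr2, 118111876 to 118127133, plus strand) encodes thrombospondin 1, a large matrix glycoprotein that can activate latent TGF-beta. Its level was 18.4 and 19.6 CPM in WT cells without ES and 23.8 and 26.3 CPM after ES. In KO cells it was 44.0 and 79.7 CPM without and 42.1 and 50.6 CPM after it. As for Cyr61, all 4 KO libraries were above all 4 WT libraries, and KO NT replicate 2 was the highest. Thbs1 rose 3.25-fold in KO over WT without ES (1.70 ± 0.22, adjusted p = 0.00244) and 1.85-fold with ES (0.89 ± 0.22, adjusted p = 0.0391). The first call was lost without WT NT replicate 1 (adjusted p = 0.0541). The second was lost without any 1 of the 6 libraries of WT NT, WT ES and KO ES, with adjusted p from 0.0627 to 0.219.

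In WT cells ES gave Thbs1 1.32-fold more counts, with no overlap of the groups, and the difference did not pass the test (0.40 ± 0.23, adjusted p = 0.410). It passed when only the WT libraries were fitted (adjusted p = 0.0233) and without KO NT replicate 2 (0.0449). In KO cells the ES and NT libraries overlapped (-0.41 ± 0.21, adjusted p = 0.687), and the value was -0.78 without KO NT replicate 1 (adjusted p = 0.00764) and 0.07 without KO NT replicate 2 (adjusted p = 0.920). The ES effects of KO and WT differed by -0.81 ± 0.31 (adjusted p = 0.369), or by -1.18 without KO NT replicate 1 (adjusted p = 0.00316).

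Age brought the clearest change of Thbs1. Young libraries held 42.0, 33.4 and 47.4 CPM, and old libraries held 125, 133 and 129 CPM. The old libraries lay close together and far above the young ones, a 3.16-fold rise (1.66 ± 0.11, adjusted p = 1.77e-05) that held under all 13 alternatives run. A long non-coding RNA on the opposite strand, Gm29233, shares 208 exon bases with Thbs1 and was 1.82 ± 0.51 higher on the log2 scale in old cells (adjusted p = 0.0602). The libraries keep strand, but the strand setting of the counting is not stated in the sources used here, so reads of the pair cannot be assigned with certainty.

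Ctgf (chr10, 24595442 to 24598683, plus strand), the other CCN family target and often the first gene named for YAP activity, was nearly silent in these cells. WT libraries had 3 and 4 counts without ES and 0 and 0 after it, whereas KO libraries had 0 and 2 counts without ES and 2 and 0 after it, too few for a test. The young libraries had 7, 12 and 14 counts and the old ones 27, 3 and 15. These groups overlapped widely (0.52 ± 0.67, adjusted p = 0.749), and the old group held both the highest and the lowest library. Gm15270 on the opposite strand shares 665 exon bases with it. Ankrd1 (chr19, 36111961 to 36120099, minus strand) had no count in the 8 Chrm3 libraries, which allows a level of up to 0.0117 CPM over all 8 (3 counts of their total, counting error only), and 2 counts in the ageing experiment, both in old replicate 2.

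Amotl1 and Amotl2, the angiomotin-like members, went different ways. Amotl1 (chr9, 14541966 to 14645056, minus strand) showed the largest difference of any tested member, and it was with age. It stood at 7.98, 6.11 and 7.30 CPM in the young libraries, from 215 to 264 counts each, and at 0.66, 0.59 and 1.13 CPM in the old ones, from 21 to 36 counts. No old library came near a young one, and Amotl1 was 9.0-fold lower in old cells (-3.17 ± 0.26, adjusted p = 7.13e-05), with a range of -3.50 to -3.00 over the 13 alternatives run. In the Chrm3 libraries Amotl1 was low everywhere, at 1.41 and 1.41 CPM (WT NT), 1.59 and 1.27 (WT ES), 2.53 and 1.06 (KO NT), and 2.76 and 1.39 (KO ES). Replicate 1 was above replicate 2 in both KO groups by more than the groups differed, and no comparison there passed the test (log2 differences from 0.02 to 0.52, adjusted p from 0.541 to 0.988).

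Amotl2 (chr9, 102716672 to 102733418, plus strand) was steadier. In WT it had 7.92 and 7.42 CPM in NT against 7.51 and 8.53 after ES, and in KO 8.30 and 7.80 against 6.25 and 4.60. The KO ES libraries were the lowest, below both KO NT (-0.57 ± 0.17, adjusted p = 0.282) and WT ES (-0.57 ± 0.17, adjusted p = 0.0778), and neither difference passed the test. The young libraries had 7.65, 8.22 and 8.51 CPM and the old libraries 12.8, 11.4 and 8.88. All old values were above all young values, old replicate 3 only just, and the difference of 0.44 ± 0.15 missed the threshold (adjusted p = 0.111). Without old replicate 3 it was 0.58 (adjusted p = 0.0222).

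The 3 markers of the fetal-like state were low or absent, and none changed beyond the test in any comparison. Clu (chr14, 65968483 to 65981547, plus strand), which marks the revival stem cells that appear after crypt damage, had 1.88 and 1.51 CPM (WT NT), 1.46 and 2.24 (WT ES), 2.61 and 1.06 (KO NT), and 1.65 and 1.39 (KO ES). Both the highest and the lowest of these 8 values belonged to KO NT. In the ageing experiment Clu had 1.69, 1.88 and 2.99 CPM in young and 0.84, 1.35 and 2.09 in old libraries, which overlapped (-0.62 ± 0.36, adjusted p = 0.384). Anxa1 (chr19, 20373428 to 20390944, minus strand), an annexin that limits inflammation, gave 15 counts in all over the 8 Chrm3 libraries and 8 over the 6 ageing libraries. It was at 0 in 4 of each set, and too low to test.

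Ly6a (chr15, 74994877 to 74998031, minus strand), the surface antigen Sca-1 that labels fetal-like crypt cells after infection or injury and also answers to interferon, had larger ES differences than Clu, the other marker with enough counts for a test. WT libraries had 0.75 and 0.77 CPM in NT and 2.54 and 1.16 after ES, and KO libraries had 0.81 and 0.55 in NT and 1.30 and 2.18 after ES. Both ES groups were above their NT groups without overlap, on 18 to 78 counts per library. The differences were 1.28 ± 0.45 in WT (2.43-fold, adjusted p = 0.156) and 1.36 ± 0.45 in KO (2.56-fold, adjusted p = 0.363), so neither passed the test. The ES differences of KO and WT were 0.08 ± 0.63 apart (adjusted p = 0.986). In the ageing experiment Ly6a stood at 5.60, 4.32 and 3.81 CPM in young and 2.95, 4.01 and 3.25 in old libraries, with overlap (-0.42 ± 0.21, adjusted p = 0.289). Ly6a lies in a cluster of related Ly6 genes, and the treatment of reads shared between similar copies is not stated in the sources used here.

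A list of 21 interferon response genes summed to 504 to 507 CPM without ES and 571 to 690.0 with it in WT cells, and to 527 to 564 without and 727 to 731 with it in KO cells. After ES, 1 of the 21 (4.76%) rose in WT cells (Igtp, an interferon-induced GTPase, 0.76 ± 0.12), beside 2.03% of all genes higher. In KO cells 5 (23.8%) rose, beside 0.392%, among them Tap1, a peptide transporter for antigen presentation (0.61 ± 0.08), and Igtp (0.79 ± 0.12). In replicates 1 and 2 of WT ES the sum was 690 and 571 CPM and Ly6a 2.54 and 1.16 CPM. For KO ES the sum was 727 and 731 CPM and Ly6a 1.30 and 2.18 CPM. For WT NT the sum was 507 and 504 CPM and Ly6a 0.75 and 0.77 CPM, and for KO NT 564 and 527 CPM and 0.81 and 0.55 CPM. In old cells 6 of the 21 fell and 1 rose (33.3% called, beside 7.35% of all genes), with Usp18 (-1.01 ± 0.18) and Irf7 (-0.64 ± 0.11) first. The part of these genes in the Ly6a values was not tested.

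Set against all genes, the members' calls went to 3 genes, Cyr61, Thbs1 and Amotl1. After ES in WT cells none of the 6 tested members was called by edgeR, nor by limma-voom or DESeq2, beside 3.32% of 17364 tested genes (2.03% higher and 1.30% lower). After ES in KO cells none was called by edgeR or limma-voom and 1, Cyr61, by DESeq2 (adjusted p = 0.0423), beside 0.507% of all genes (0.392% higher and 0.115% lower). Unadjusted p was under 0.05 for Ly6a in WT, and for Cyr61, Amotl2 and Ly6a in KO. In KO over WT without ES, 2 of 6 members rose, Cyr61 and Thbs1, beside 4.24% of all genes (2.29% higher and 1.95% lower). The same pair rose in KO over WT with ES, beside 7.41% of all genes (3.02% higher and 4.39% lower). The WT and KO comparisons share libraries with the ES comparisons and are not independent of them.

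For the difference of the ES effects none of the 6 members was called by edgeR, limma-voom or DESeq2, beside 0.0633% of all genes, with unadjusted p under 0.05 for Cyr61, Amotl2 and Thbs1. In old over young cells 3 of 7 tested members were called, Cyr61 and Thbs1 higher and Amotl1 lower, beside 7.35% of 16807 tested genes (4.18% higher and 3.17% lower). The members' median log2 difference was 0.09 and -0.35 for ES in WT and KO, 0.24 and 0.22 for KO over WT without and with ES, and 0.44 with age. The median over all tested genes lay between -0.01 and 0.01 in these comparisons. Groups without overlap are common with so few libraries: 52.8%, 33.3%, 48.0% and 53.3% of all tested genes had them in the same 4 Chrm3 comparisons, and 26.4% with age. The share of all genes that set every KO library apart from every WT library was not counted.

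**Figure D2:**
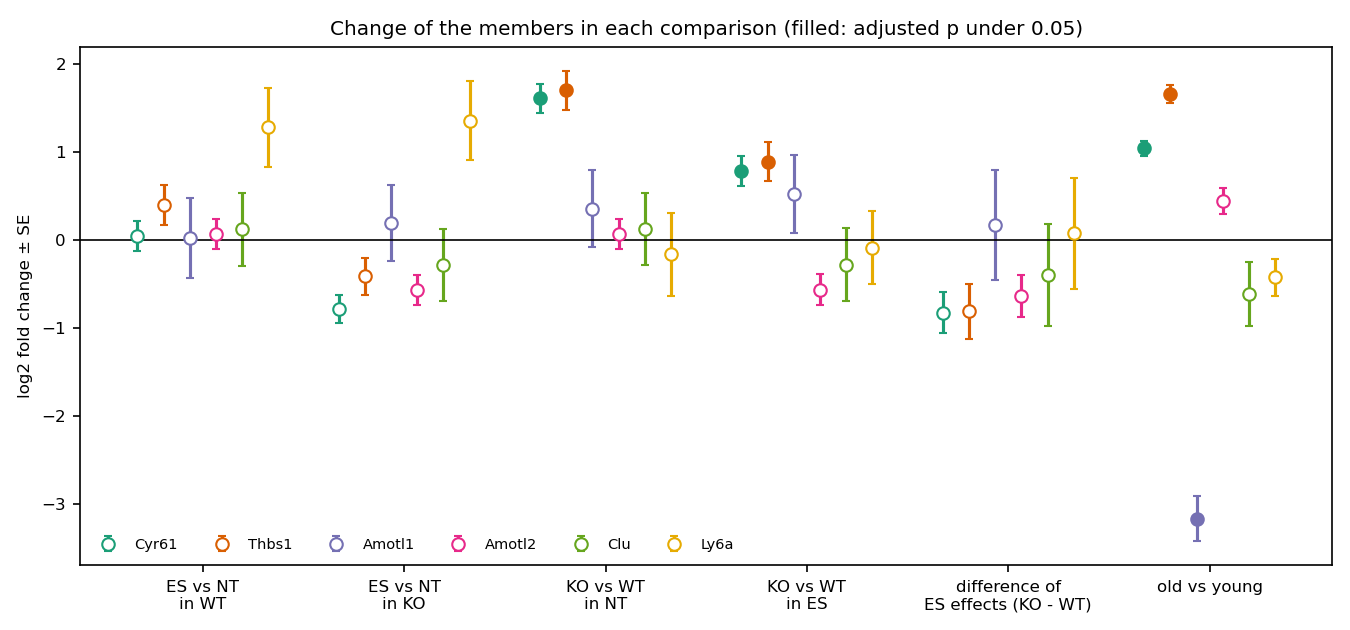
Log2 fold change on the vertical axis, with bars of 1 SE, of the 6 members tested in both experiments, for the 6 comparisons along the horizontal axis. Filled points passed an adjusted p of 0.05: Cyr61 and Thbs1 lie above 0 in both KO against WT comparisons and in old against young, where Amotl1 lies at -3.17.

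Genes of the Hippo pathway itself came next. Yap1 averaged between 119 and 133 CPM in all 6 groups and was not called in any comparison (0.01 ± 0.06 with age). Of 30 core genes, kinases, adaptors, co-activators and TEAD factors, none was called in the 5 Chrm3 comparisons by edgeR, where 6, 0, 3, 3 and 3 had an unadjusted p under 0.05. In old cells 2 of 30 (6.67%) were called, beside 7.35% of all genes, and both fell: Wwtr1, which encodes TAZ, from 10.2 ± 0.46 to 6.94 ± 1.07 CPM (SD, n = 3; -0.56 ± 0.14, adjusted p = 0.0420), and Wwc2, a relative of the scaffold KIBRA (-0.67 ± 0.18, adjusted p = 0.0458). Tead1, the most abundant of the named TEAD genes, stood at 64.6 to 87.4 CPM in the 14 libraries, and Tead4 at 0.46 to 1.68. Among the kinases Lats1 ranged from 119 to 150.1 CPM and Lats2 from 0.81 to 2.81, and the TEAD co-repressor Vgll4 ranged from 87.3 to 105.1 CPM.

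Other YAP and TAZ targets, 17 tested of a 22-gene list modelled on a published cancer signature, did not move as one. Myof, a membrane-repair protein, rose after ES in WT (0.76 ± 0.12) and in KO (0.74 ± 0.13), and was lower in KO than in WT without ES (-0.80 ± 0.13) and with ES (-0.82 ± 0.12), opposite in direction to Cyr61 and Thbs1. In KO over WT without ES, the survivin gene Birc5 rose (0.44 ± 0.07), as did Edn1, the endothelin 1 gene (0.93 ± 0.17), named after its values were seen. Old cells had more Edn1, 28.7 against 12.3 CPM (1.22 ± 0.14, adjusted p = 0.000647), and more Nt5e, the ecto-enzyme CD73 (1.92 ± 0.35, adjusted p = 0.00901). In KO over WT without ES 2 of the 17 rose and 1 fell (17.6% called), beside 4.24% of all genes. With ES 1 was called (5.88%), beside 7.41%. After ES 1 was called in WT, beside 3.32%, and 1 in KO, beside 0.507%. With age 2 rose and 0 fell (11.8%), beside 7.35%, and 7 had an unadjusted p under 0.05. The 22 genes summed to 320 to 336 CPM in old and 282 to 288 in young libraries. The median of the list was -0.08 in KO over WT without ES and 0.22 with age, beside -0.01 and -0.00 over all genes.

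A list of 32 other fetal-like and injury-response epithelial genes, 23 tested in the Chrm3 experiment and 24 in the ageing experiment, was mixed in direction. After ES, Anxa2 rose (0.52 ± 0.11) and Ccnd2 fell (-0.32 ± 0.06) in WT, and Ly6e (0.61 ± 0.09) and Krt7 (0.40 ± 0.07) rose in KO. In KO over WT 2 rose and 3 fell without ES, led by the EGF receptor ligand Areg (2.06 ± 0.24, 5.56 against 1.33 CPM) and the tetraspanin-like Tm4sf4 (-0.92 ± 0.11). With ES 2 rose and 5 fell, with Tm4sf4 (-0.81 ± 0.10) and the calcium-binding S100a6 (-1.31 ± 0.26) first. In old cells 3 rose and 4 fell, with the claudin Cldn4 (0.60 ± 0.09) and S100a6 (-1.46 ± 0.22) first. The share called was 21.7% and 30.4% in KO over WT without and with ES and 29.2% with age, beside 4.24%, 7.41% and 7.35% of all genes. None of this list was called in the difference of the ES effects, where 6 had an unadjusted p under 0.05.

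Of the close relatives of the members, 15 were tested of 26 in the tables. The calls were 1 of 15 (6.67%) for ES in WT, beside 3.32% of all genes, 1 of 15 for ES in KO, beside 0.507%, 2 of 15 (13.3%) for KO over WT with ES, beside 7.41%, and 2 of 15 with age, beside 7.35%. Anxa2 (0.52) and Ly6e (0.61) were the only ones called with ES, both higher, in WT and in KO respectively, and Anxa3 (-1.31 ± 0.32) and Anxa2 (-0.43 ± 0.11) fell in KO relative to WT with ES. With age Anxa13 (0.32 ± 0.06) and Ly6e (0.38 ± 0.10) rose. No relative was called in KO over WT without ES, where 2 had an unadjusted p under 0.05, nor in the difference of the ES effects, where 1 had.

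**Figure D3:**
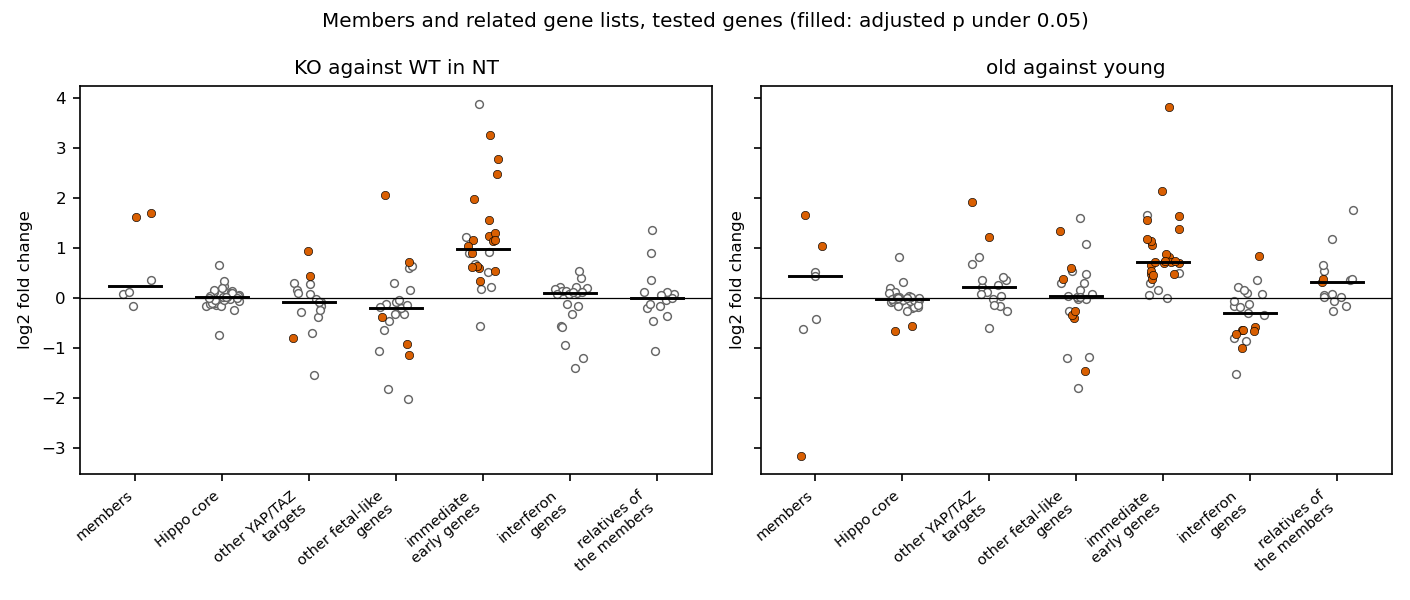
Log2 fold change on the vertical axis of the tested genes of each list along the horizontal axis, in KO against WT without ES (left) and in old against young (right), 1 point per gene, with a line at the median of each list and filled points for an adjusted p under 0.05. The immediate early genes have their median at 0.99 on the left and 0.71 on the right, with 17 of 26 and 22 of 28 genes called higher.

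The groups in which Cyr61 and Thbs1 rose were also those in which immediate early genes rose. Of 28 such genes, which include Fos, Jun, Egr1 and Atf3, 26 were tested in the Chrm3 experiment and 28 in the ageing experiment. In KO over WT without ES 17 of 26 (65.4%) rose and none fell (median log2 difference 0.99), beside 2.29% of all genes higher, led by Jun (1.24 ± 0.11) and by the stress-response factor Atf3 (2.78 ± 0.25, 139 against 20.2 CPM). With ES 4 of 26 (15.4%) rose and none fell, beside 3.02% of all genes higher, with Jun (0.63 ± 0.11) and Atf3 (1.34 ± 0.24) first. In old cells 22 of 28 (78.6%) rose and none fell (median 0.71), beside 4.18% of all genes higher, led by Atf3 (1.55 ± 0.09) and the phosphatase gene Dusp1 (1.05 ± 0.07). After ES 1 of 26 (3.85%) rose in WT, Klf10 (1.07 ± 0.12), beside 2.03% of all genes higher. In KO 1 of 26 fell, Nr4a2 (-0.93 ± 0.17), beside 0.115% lower. Klf10 was the only one called in the difference of the ES effects (-1.68 ± 0.17), beside 0.0633%. Unadjusted edgeR p was under 0.05 for 13 of 26 in WT (median 0.32), 14 in KO (median -0.46) and 17 in the difference (median -0.71).

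The summed level of the 28 genes was 2203 to 2215 CPM (WT NT), 2760.5 to 2909.8 (WT ES), 3812 to 5536 (KO NT) and 3380.2 to 3903 (KO ES). It was 3491 to 3592 CPM in young and 5155 to 5988 CPM in old libraries. With age the sum, Cyr61 and Thbs1 were all higher. In the Chrm3 experiment the group means of all 3 measures ranked WT NT, WT ES, KO ES and KO NT from low to high. For Cyr61 the step from WT NT to WT ES was small, 33.6 to 34.7 CPM with overlap, whereas the mean sum went from 2209 to 2835 CPM. KO NT replicate 2 was the highest Chrm3 library in all 3 measures. Within the young and old groups the libraries did not follow a common order. The number of these genes called depended on single libraries. For KO over WT without ES it was 7 without either WT NT library. For KO over WT with ES it was 0 without KO ES replicate 2, 1 without either WT ES library, 2 without either WT NT library and 11 without either KO NT library. For ES in WT it was 0 without either WT NT library, and 12 or 13 without KO NT replicate 1 or 2. Without KO NT replicate 1 it was 16 for ES in KO, 15 of them lower, and 17 for the difference of the ES effects, 16 of them lower. For old over young it stayed between 16 and 20 with 1 library left out. The part of an immediate early response in the Cyr61 and Thbs1 values was not tested.

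**Figure D4:**
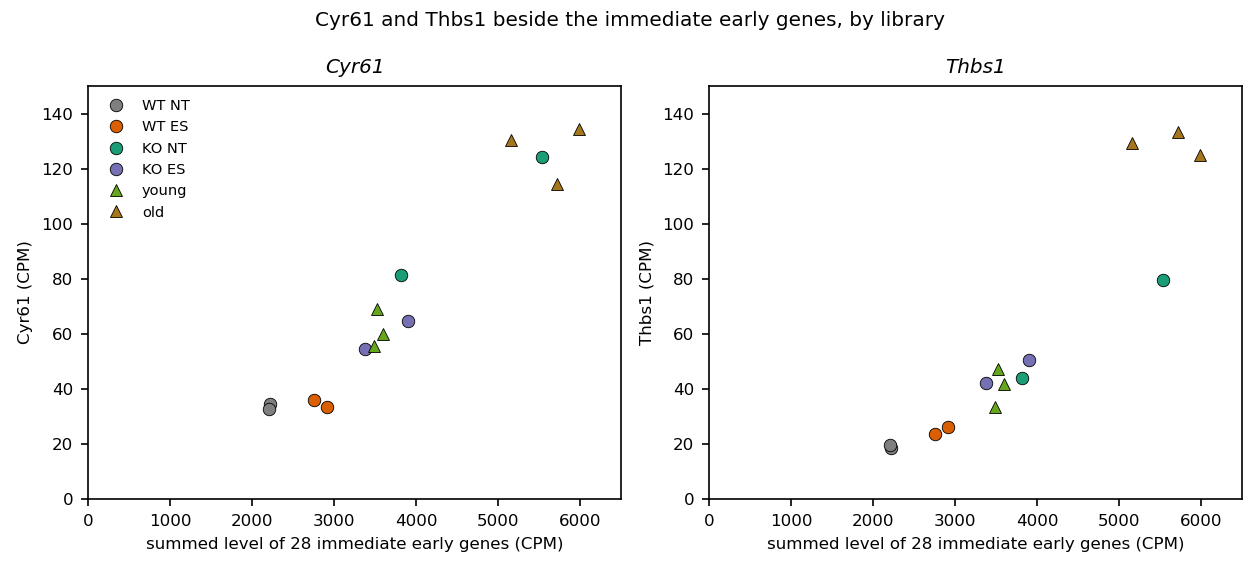
Cyr61 and Thbs1 in CPM on the vertical axes against the summed CPM of 28 immediate early genes on the horizontal axis, 1 point per library, marked by group. KO NT replicate 2 stands at the upper right of the Chrm3 libraries, at 5536 CPM of immediate early transcript, and the 3 old libraries stand above and to the right of the 3 young ones.

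The genes whose levels followed each member most closely were found from Pearson's r of log2(CPM + 0.5) over the 14 libraries, each experiment centred on its own mean, among 13501 genes. These values describe libraries that share groups and depth, and carry no p. Closest to Cyr61 were the orphan nuclear receptor gene Nr4a1 (0.99), Gm17024 (0.97) and Areg (0.97), and closest to Thbs1 were Gabpa (0.97), Egr1 (0.97) and Dusp1 (0.96). Cyr61 and Thbs1 had an r of 0.94 with each other, 0.95 in the Chrm3 libraries and 0.98 in the ageing libraries. Amotl1 was most like Tnks1bp1, Cdc42se1 and Slc28a2 (0.95 each), although their r in the Chrm3 libraries alone was 0.51 to 0.74. Amotl2 was most like Gm38102 (0.92), Mapre3 (0.87) and Taok2 (0.86), Clu most like Pkd2 (0.87), Gzf1 (0.81) and Sgcb (0.81), and Ly6a most like Mmp28 (0.90), Prodh (0.90) and Slc39a11 (0.87). Clu and Ly6a, both read as markers of the same state, had an r of 0.02.

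Markers of other cells moved with some of the comparisons. In bulk libraries a change in the number of cells of a type and a change of RNA per cell cannot be told apart. In old libraries the summed level of 12 T cell markers was 145 to 179 CPM against 28.03 to 40.6 in young ones, with 9 of 10 tested higher. That of 6 general leukocyte markers was 37.6 to 45.8 against 15.3 to 19.1, with 5 of 6 higher, beside 4.18% of all genes. The 10 myeloid markers summed to 79.3 to 112 CPM in old and 48.6 to 72.2 in young libraries. Of 5 tested, 1 was called, Itgam, which was higher. Lyz2 was the largest part of the sum, at 20.3 to 71.5 CPM. Csf1r, Adgre1, Fcgr3, Ly86, C1qa and C1qb each reached at most 0.75 CPM. The 8 tuft cell markers summed to 87.5 to 91.9 CPM in old and 161 to 198 in young libraries, with 6 of 8 lower, beside 3.17% of all genes. The 8 goblet cell markers summed to 8684 to 9086 CPM in old and 6582 to 7841 in young libraries, with 3 called higher and 2 lower. The 8 enteroendocrine markers summed to 382 to 529 and 350 to 390 CPM, with 3 higher and 1 lower. Of all genes 4.18% were higher and 3.17% lower. Among the neighbours of Thbs1 on the chromosome, Rasgrp1, a signalling gene of T cells, rose with age (2.03 ± 0.32, adjusted p = 0.00419). The part of these cells in the higher Cyr61 and Thbs1 and the lower Amotl1 of old libraries was not tested.

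Stromal cells are a rich source of Cyr61, Ctgf and Thbs1 in whole tissue, and their part in the members' values was not tested. Of 12 fibroblast markers 8 or 9 were at 0 in each group, and the sum ran from 29.9 to 37.9 CPM in the Chrm3 libraries and from 36.1 to 40.9 in the ageing libraries. Most of it was Fbln1, at 28.3 to 35.3 and 33.4 to 38.1 CPM. The 10 endothelial markers summed to as much as 12.2 CPM in the Chrm3 libraries and 11.9 in the ageing libraries. Most of this was Esam, at 6.27 to 9.58 and 7.16 to 9.22 CPM. Egfl7, Pecam1, Eng and Ptprb also had counts in every library, at no more than 1.66 CPM each. The endothelial markers Cdh5, Kdr and Cldn5 were at 0 in all 14 libraries, and smooth muscle markers summed to 0.37 to 1.54 CPM. Of the 2 fibroblast and 5 or 6 endothelial markers that could be tested, none was called by edgeR in any of the 6 comparisons, with at most 1 and 3 at an unadjusted p under 0.05. In KO libraries the 8 goblet cell markers summed to 2539 to 2610.3 CPM without ES against 4991 to 5106 in WT, and the 8 tuft cell markers to 31.6 to 40.2 against 81.6 to 84.3. After ES in WT, goblet markers reached 10138 to 10349 CPM. In the same comparison 9 of 10 stem cell markers fell, beside 1.30% of all genes, from a sum of 14470.0 to 14776 CPM down to 11247 to 11630.1. With ES, KO over WT had 8 of 8 goblet markers lower (4327 to 4365 against 10138 to 10349 CPM) and 9 of 10 enterocyte markers lower (1014 to 1232 against 1809 to 2158 CPM). There 6 of 8 enteroendocrine and 4 of 8 tuft cell markers were also lower, beside 4.39% of all genes. Of the stem cell markers 6 of 10 were higher (14331 to 15086 against 11247 to 11630.1 CPM), beside 3.02% of all genes. The part of these epithelial shifts in the members' values was not tested.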

How the data were processed

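Polyadenylated RNA was sequenced as strand-specific libraries. The deposited tables hold whole-number counts per Ensembl gene with no normalization, as their values show, 1 table for each experiment. The submitters' processing notes name mm10 and FastQC 0.11.2. Aligner, counter and annotation: not given in the sources used here. In the Chrm3 table NT columns are named Ctrl. Positions and exon lengths come from GENCODE M21 (55154 of 55335 identifiers matched).

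From the counts, edgeR 4.0.16 (R 4.3.3) kept genes with filterByExpr, scaled with TMM and fitted a quasi-likelihood model with 1 mean per group, separately for each table. A gene was called at a Benjamini-Hochberg adjusted p under 0.05 over all tested genes. SE is the log2 difference divided by the root of F. The model was tested on simulated data. Alternatives were RLE scaling, 2 count filters, limma-voom (limma 3.58.1), DESeq2 1.42.0, a replicate block, other thresholds, only the compared groups, leaving out each library and, chosen after seeing the data, a robust fit and counts of immediate early genes.

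The members and lists were chosen with earlier results of these data known. From each list the 2 called genes with the smallest p per comparison are named. Replicate numbers were not treated as pairs, and no 2 libraries agree within sampling noise.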

Additional observations from a re-analysis of the deposited data

How the results depend on the processing

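The 37 results on members were recomputed under every alternative that could be fitted, giving 564 values, of which 541 stayed on their side of the threshold, 13 lost it and 10 gained it. Of the 541, 516 kept their direction and 25, none of them called, changed sign. KO over WT with ES, with 2 members called, had 1 with limma-voom (Cyr61) and 0 at a threshold of 0.01 and with the robust fit. ES in KO, with none called, had 1 (Cyr61) with DESeq2, at a threshold of 0.10 and with the replicate block (-0.77, adjusted p = 0.0379). ES in WT had 1 (Thbs1) when only its 2 groups were fitted. Leaving out 1 library at a time, the number of members called ranged from 0 to 1 for ES in WT, 0 to 2 for ES in KO, 1 to 2 for KO over WT without ES, 0 to 2 for KO over WT with ES, 0 to 2 for the difference of the ES effects and 3 to 4 for old over young. Where this left a group with 1 library, that library was taken to vary like the other groups.

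Same-numbered libraries deviated together only weakly (r from -0.01 to 0.17 in the Chrm3 experiment and 0.03, 0.12 and 0.15 for the 3 ageing pairs), so the numbers were not read as pairing, and the block changed no other number of members called. With the block, immediate early genes called were 6 for ES in WT, 4 for ES in KO and 4 for the difference, against 1 each without it. Counts over all genes moved too. ES in WT called 577 genes, 1043 with DESeq2, 883 with the block and 1803 from its own groups alone. ES in KO called 88, 226 with DESeq2, 150 with the block and 15 from its own groups. The difference called 11, 8 to 211 under the alternatives. Old over young called 1235, 661 without a count filter. Leaving out 1 library gave 21 to 1162 for ES in WT, 12 to 262 for ES in KO, 135 to 789 and 366 to 1860 for KO over WT without and with ES, 0 to 353 for the difference and 577 to 1366 with age. The cause of these shifts was not tested. Ctgf, Anxa1 and Ankrd1 are limited by depth, at 0 to 27 counts per library. The ES differences of Ly6a rest on 18 to 78 counts per library and have an SE of 0.45.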

Other observations

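The chromosomal neighbours of Amotl1, the member with the largest change, showed smaller differences than it did. With age Endod1 fell by 0.47 ± 0.07 on the log2 scale (adjusted p = 0.00233), Fut4 differed by -0.21 ± 0.10 (adjusted p = 0.278), and Cwc15 (0.03 ± 0.07) and Piwil4 (0.08 ± 0.20) were near their young levels. Other genes overlap Amotl1 without sharing exon bases, Gm34263 on the other strand and 4930584E12Rik on the same strand. The 4 tested neighbours of Cyr61 gave no call in KO over WT without ES or with age.

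Amotl1 also differed in level between the experiments. The 3 young libraries held 6.11 to 7.98 CPM, whereas the 4 WT libraries of the Chrm3 experiment, from mice of unstated age, held 1.27 to 1.59 and the old libraries 0.59 to 1.13. These are values from tables normalised separately, and the difference between experiments was not tested.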
